A study of Mus musculus with 6 samples.

Results

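The transcripts described here are those of 37 genes of the interferon response and of MHC class I antigen presentation, among 25330 genes listed in the count tables. The genes were chosen by name from these pathways, with earlier results of these data known, and all 37 were found in the tables. They were measured in AML12 cells, a mouse hepatocyte line grown in DMEM/F12 with 10% serum, insulin, transferrin, selenium and 40 ng/ml dexamethasone. RNA-seq libraries came from 3 control samples kept in normoxia (21% oxygen) and from 3 hypoxia/reoxygenation (H/R) samples, which spent 6 h at 1% oxygen in medium without serum and glucose and were then reoxygenated for 2 h. All cells were labelled wild type, the labels name no virus, nucleic acid or interferon added, and the medium changed together with the oxygen, so the effects of oxygen and of medium cannot be told apart. The comparison asks which of these transcripts differed between H/R and normoxia.

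Interferons are cytokines made by cells that sense foreign or misplaced nucleic acid. Type I interferons bind a receptor made of IFNAR1 and IFNAR2 and signal through the kinases TYK2 and JAK1, while interferon gamma binds IFNGR1 and IFNGR2 and signals through JAK1 and JAK2. The activated STAT proteins, with or without IRF9, bind elements called ISRE and GAS in the promoters of interferon-stimulated genes, which include antiviral effectors and the MHC class I genes. MHC class I molecules consist of a heavy chain and B2m and carry peptides, pumped into the endoplasmic reticulum by TAP and loaded with the help of tapasin, to the cell surface, where CD8 T cells read them.

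Promoter windows were compared for the tested member that rose most (Jak1), the tested member that fell most (Eif2ak2) and, as examples of strongly interferon-driven promoters, Isg15 and Ifit1. The window of B2m is shown as well, and was chosen after its matches were seen. Each window runs from 180 bases before to 30 bases after the transcription start site of RefSeq on GRCm38.p6, and is written in the direction of the gene. Capitals mark the core of the ISRE (GAAA, any 2 bases, GAAA), the core of the GAS (TTC, any 3 bases, GAA) or an NF-kB site (GGGA, any base, TTTCC), searched on both strands.
Jak1 (chr4:101265194-101265403, minus strand): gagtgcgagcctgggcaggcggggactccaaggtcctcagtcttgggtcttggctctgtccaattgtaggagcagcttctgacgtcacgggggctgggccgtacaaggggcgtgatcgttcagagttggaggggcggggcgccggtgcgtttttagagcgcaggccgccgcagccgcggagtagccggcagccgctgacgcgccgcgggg
Eif2ak2 (chr17:78882543-78882752, minus strand): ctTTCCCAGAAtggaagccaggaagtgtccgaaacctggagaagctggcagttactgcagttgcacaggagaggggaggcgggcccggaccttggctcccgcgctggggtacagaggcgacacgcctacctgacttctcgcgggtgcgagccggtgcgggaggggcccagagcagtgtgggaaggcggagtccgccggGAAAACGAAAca
Isg15 (chr4:156200789-156200998, minus strand): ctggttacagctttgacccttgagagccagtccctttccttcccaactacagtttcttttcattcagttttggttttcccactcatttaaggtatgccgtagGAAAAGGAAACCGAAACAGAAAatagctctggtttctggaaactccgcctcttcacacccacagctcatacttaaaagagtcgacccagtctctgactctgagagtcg
Ifit1 (chr19:34640709-34640918, plus strand): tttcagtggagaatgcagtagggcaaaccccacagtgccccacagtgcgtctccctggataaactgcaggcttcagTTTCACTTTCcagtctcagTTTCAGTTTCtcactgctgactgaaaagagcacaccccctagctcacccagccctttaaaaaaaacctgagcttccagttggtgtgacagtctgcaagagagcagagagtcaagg
B2m (chr2:122147507-122147716, plus strand): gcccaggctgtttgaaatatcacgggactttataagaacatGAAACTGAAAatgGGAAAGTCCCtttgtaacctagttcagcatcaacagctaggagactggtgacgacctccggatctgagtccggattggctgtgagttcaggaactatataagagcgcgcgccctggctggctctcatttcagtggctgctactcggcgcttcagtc

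Isg15 held 3 overlapping ISRE cores, which began 78, 72 and 66 bases before its start site. Ifit1 held 2 ISRE cores, and B2m held an ISRE core and an NF-kB match 3 bases apart. Eif2ak2 had an ISRE core 19 to 28 bases after its start and a GAS core at the far end of the window, where the bases of both are in capitals. In Jak1 none of the 3 motifs was found, which says only that these letters were not in the window. These letters are a description of the sequence and do not show that a protein binds there.

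Over windows from 250 bases before to 50 after the start site, which were available for 33 of the 37 members, the ISRE core was found in 12 (36.4%), against 3.99% of all 27025 genes with a window. A gene with several windows was counted once, if any of them held the letters. These were B2m, Bst2, Ddx58, Eif2ak2, H2-T23, Ifih1, Ifit1, Ifit3, Irf2, Isg15, Rsad2 and Stat2. The GAS core was found in 8 members (24.2%) and in 9.55% of all genes, and the NF-kB letters in 2 members (B2m and Ifngr2) and in 0.466% of all genes. An ISRE core was present in 2 of 8 members that were higher after H/R, 1 of 8 that were lower, 4 of 9 that did not pass the test and 5 of 8 whose counts were too low to test. Windows with the ISRE letters were therefore spread over all classes of response, with the largest share among the untested genes. The GAS core was in none of the 8 untested members. A member without a match lacked only these exact letters in the windows used, and classes of 8 or 9 genes are small. Windows were not used here for Nlrc5, Tap2, Tmem173 and Usp18.

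**Figure D1:**
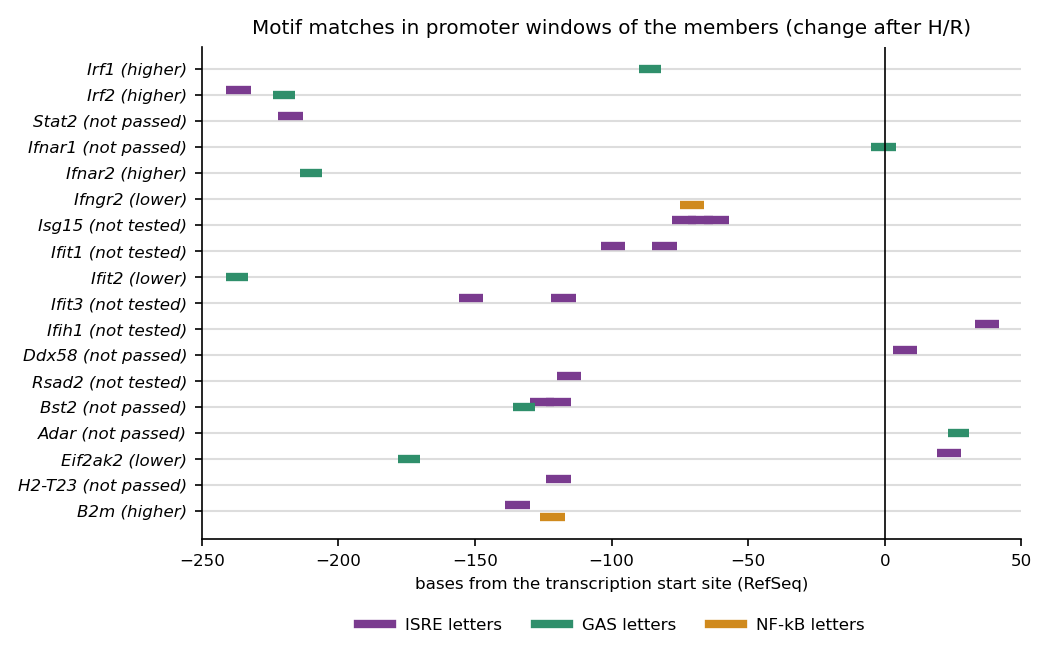
Position of motif letters in the promoter windows of the 18 members that held at least 1 match, in bases from the RefSeq transcription start site, with each gene's change after H/R in brackets. Purple bars are ISRE cores, green bars GAS cores and orange bars NF-kB letters. ISRE cores lie in genes of every class of response, and Isg15, Ifit1, Ifit3 and Bst2 hold more than 1.

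Total counts per library ranged from 20438746 to 21854790, and genes were compared by the quasi-likelihood test of edgeR, whose p-values were adjusted over the 14020 genes with enough counts (Benjamini-Hochberg). Scaled counts are counts divided by the effective library size after TMM scaling and multiplied by its mean, and are given as mean ± SD of 3 libraries. Whether the 3 replicates of a group were separate cultures is not given in the sources used here, so p-values measure the spread between these libraries, which may be technical. Of the hepatocyte markers, Krt8 (54546, 51180 and 55849 counts in the controls) and Hnf4a (2973, 2973 and 3209) were abundant, whereas Alb (542, 132 and 209) and Ttr (344, 181 and 423) were low. Several liver genes were at or near 0 in every library but 1, since Serpina1a had 61 and Fga 61 counts in control replicate 1 and at most 1 in each other library. Endothelial and stellate cell markers reached at most 4 and 13 counts in any library.

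Of the 37 members, 26 had enough counts to be tested, and 16 of these (61.5%) passed at an adjusted p under 0.05, against 62.8% of all genes tested. They were evenly divided, with 8 higher after H/R (31.0% of all genes were higher) and 8 lower (31.8% of all genes). Of the 26 tested members, 1 (Eif2ak2) passed with a change of at least 2-fold, and 8.52% of all genes did (4.25% higher and 4.27% lower). A single member is too few to compare with that share. Changes were small, with a median absolute log2 fold change of 0.25 among the tested members and 0.330 among all genes. The median signed change was 0.021 in the members and -0.014 in all genes. Thus the members were changed about as often as other genes, without a common direction. In 15 of the 26 tested members the scaled counts of the groups did not overlap, and in 65.9% of all genes tested. In these bulk libraries fewer cells with a transcript and less RNA per cell cannot be told apart. Scaling by library totals alone moved the median of all genes to -0.119 and left 6 members higher and 9 lower, while the share of higher calls among all called genes went from 49.4% to 37.9%.

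**Figure D2:**
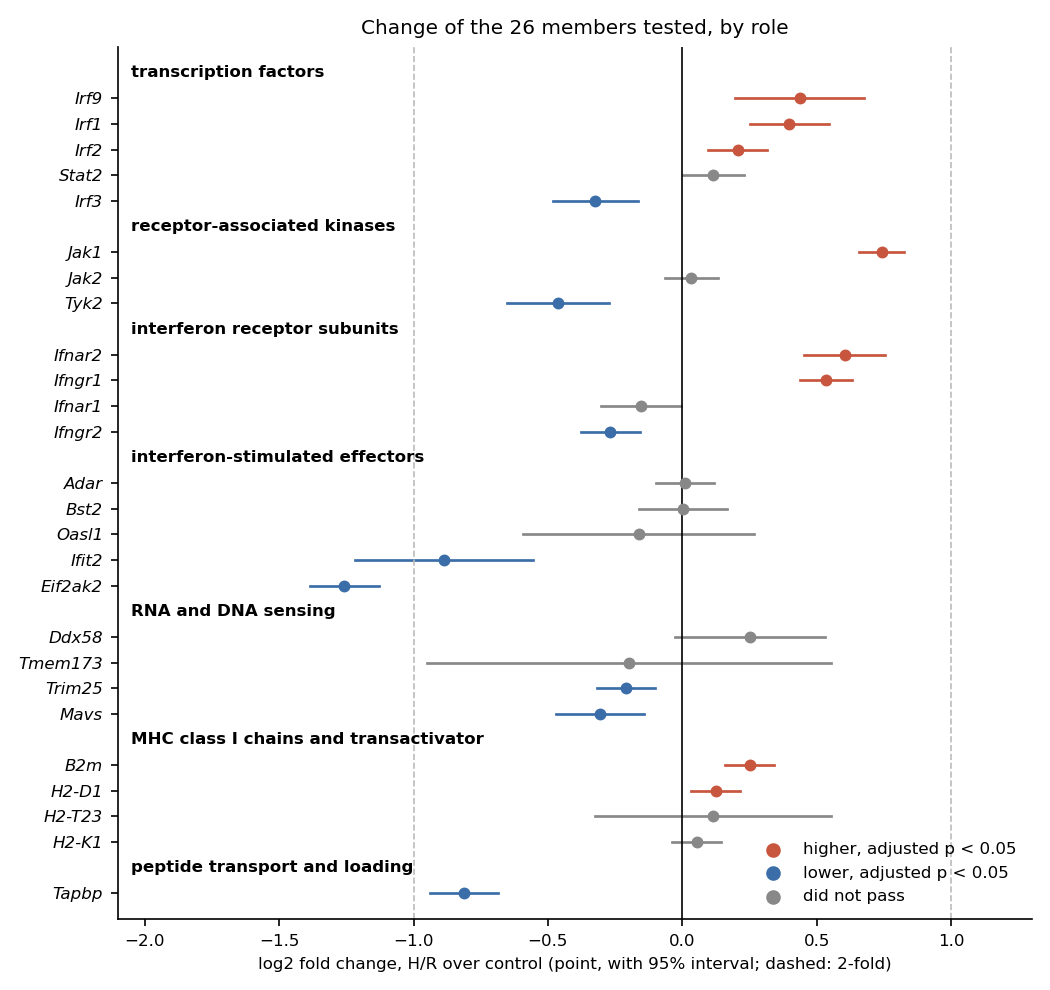
Log2 fold change of each tested member, H/R over control, grouped by role (points) with 95% intervals (lines). Red marks members that were higher, blue those that were lower and grey those that did not pass. Dashed lines mark 2-fold, which Eif2ak2 alone exceeds with a passing test (-1.26).

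Hardly any transcript of the interferons themselves was counted. Of 21 interferon genes looked for, 2 were listed in the tables, which hold only genes with at least 1 count in some library. Ifna9 had 1 count in control replicate 1, Ifne had 1 count in control replicate 3, and both were at 0 in every H/R library. A count of 0 allows up to 3 counts, so ligand transcripts were not detectable at this depth in either group.

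Receptor subunits were all transcribed, and the subunits of each receptor did not move together. Ifnar2, the type I subunit that binds interferon most tightly, had 317, 336 and 337 counts in the controls (replicates 1 to 3, the order used throughout) and 421, 466 and 480 after H/R. Every H/R library was above every control library, and Ifnar2 rose 1.52-fold (log2 fold change 0.60 ± 0.078 SE, edgeR adjusted p = 2.63e-08). Its exons share 9.46% of their length with Gm21970, so part of its counts is uncertain. Ifnar1, its partner, had 470, 521 and 497 counts in the controls and 384, 372 and 460 after H/R, a log2 fold change of -0.16 ± 0.076 SE that did not pass (adjusted p = 0.0748). The Ifnar1 call depended on scaling, since it passed with library totals (log2 fold change -0.26, adjusted p = 0.00467).

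The subunits for interferon gamma moved in opposite directions. Ifngr1, the ligand-binding chain, had 1315, 1251 and 1257 counts in the controls and 1557, 1638 and 1840 after H/R. The groups were well apart, at 1216 ± 31.1 and 1761 ± 81.1 scaled counts, and Ifngr1 rose 1.45-fold (log2 fold change 0.53 ± 0.049 SE, edgeR adjusted p = 1.64e-11). Ifngr2, the signalling chain, had 1012, 944 and 983 counts in the controls and 720, 746 and 749 after H/R. All H/R libraries were below all controls, and Ifngr2 fell to 0.830 of the control level (log2 fold change -0.27 ± 0.056 SE, adjusted p = 8.71e-05). Ifnar2 (chr16:91372783-91405589, GRCm38), Ifnar1 (chr16:91485238-91507441) and Ifngr2 (chr16:91547072-91565169) lie in this order on the plus strand of the same stretch of chromosome 16, and the first of these rose while the last fell.

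Among the receptor-associated kinases the difference was between family members. Jak1, which serves both interferon receptors and many cytokine receptors, had 2686, 2524 and 2647 counts in the controls and 3752, 3889 and 4299 after H/R. It was the tested member with the largest increase, from 2499 ± 41.2 to 4177 ± 128 scaled counts (1.67-fold, log2 fold change 0.74 ± 0.043 SE, edgeR adjusted p = 7.27e-17). Tyk2, the kinase bound to IFNAR1, had 312, 285 and 344 counts in the controls and 221, 176 and 223 after H/R. The groups did not overlap and Tyk2 fell to 0.725 of the control (log2 fold change -0.46 ± 0.097 SE, adjusted p = 9.56e-05). Jak2, used by IFNGR2, had 1229, 1254 and 1248 counts in the controls and 1116, 1102 and 1255 after H/R. Its log2 fold change was 0.03 ± 0.051 SE with a 95% interval from -0.066 to 0.133 and an adjusted p of 0.583, and its sign depended on the scaling (-0.0710 with library totals).

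Of the 6 transcription factors, Irf1, Irf2 and Irf9 rose, Irf3 fell, Stat2 did not pass and Irf7 was too low to test. Irf1, an activator of MHC class I and other interferon gamma targets, had 437, 414 and 497 counts in the controls and 530, 566 and 515 after H/R. The 3 H/R libraries were above the controls, and Irf1 rose 1.32-fold (log2 fold change 0.40 ± 0.075 SE, edgeR adjusted p = 2.26e-05). Irf9, the DNA-binding part of the complex it forms with STAT2, had 125, 106 and 115 counts in the controls and 136, 145 and 144 after H/R, and rose 1.35-fold (0.44 ± 0.122 SE on the log2 scale, adjusted p = 0.00244). Irf2, a related factor that competes with IRF1, had 840, 848 and 895 against 917, 872 and 916 counts. Only after scaling were the groups apart, at 822 ± 24.1 and 948 ± 36.7, and the increase of 1.15-fold (adjusted p = 0.00176) was lost with library totals (log2 fold change 0.10, adjusted p = 0.129).

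Irf3, the factor that nucleic acid sensors activate to switch on interferon beta, had 434, 421 and 465 counts in the controls and 299, 292 and 368 after H/R. It fell to 0.799 of the control without overlap of the groups (log2 fold change -0.32 ± 0.080 SE, edgeR adjusted p = 7.13e-04). Stat2 had 1019, 1047 and 1107 counts in the controls and 926, 1057 and 1143 after H/R, with overlapping groups (log2 fold change 0.12 ± 0.057 SE, adjusted p = 0.078). Irf7, which amplifies the type I response and is itself induced by interferon, had 1, 9 and 5 counts in the controls and 3, 4 and 12 after H/R, with no separation between the groups.

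**Figure D3:**
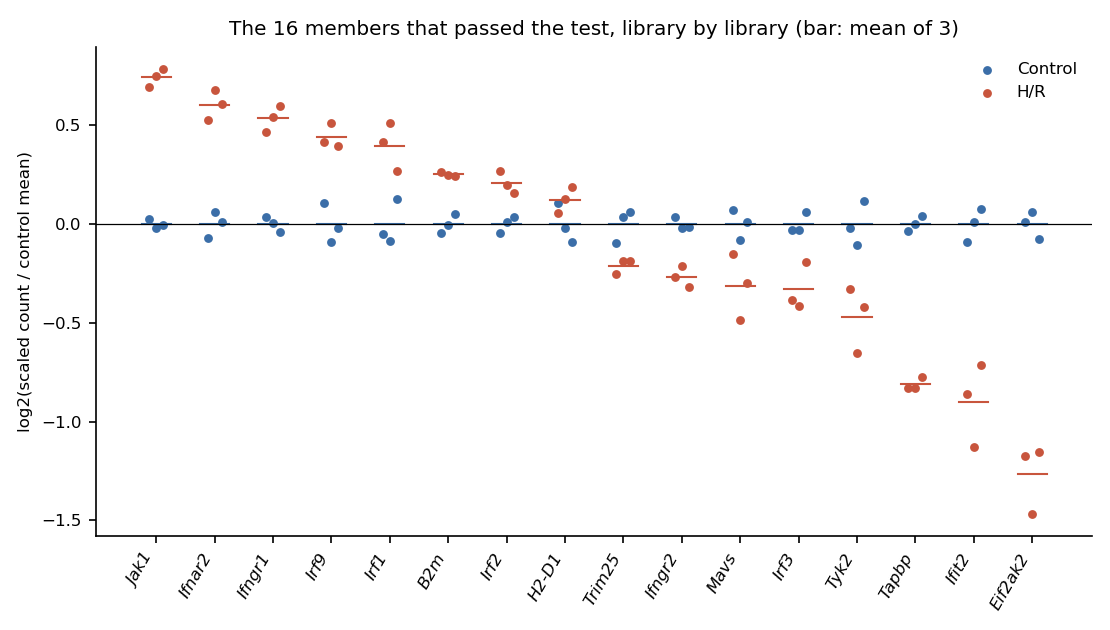
Log2 ratio of the scaled count to the control mean for the 16 members that passed the test, with 3 control libraries (blue) and 3 H/R libraries (red) per gene and bars at the group means. The groups are apart in 15 genes and overlap in H2-D1.

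Of the 5 members in nucleic acid sensing, 4 could be tested, of which 2 fell slightly and 2 did not pass. Among all genes tested 31.8% were lower, and 4 members are too few to compare with that share. Mavs, the mitochondrial adaptor of the RNA sensors, had 474, 414 and 457 counts in the controls and 357, 283 and 347 after H/R, and fell to 0.808 of the control (log2 fold change -0.31 ± 0.083 SE, edgeR adjusted p = 0.00173). Trim25, a ubiquitin ligase that acts on RIG-I, had 1058, 1122 and 1183 counts in the controls and 832, 870 and 940 after H/R, and fell to 0.864 (log2 fold change -0.21 ± 0.055 SE, adjusted p = 0.0013). In both genes the H/R libraries were all below the controls. Ddx58, which encodes RIG-I, had 142, 177 and 176 counts in the controls and 174, 214 and 146 after H/R (log2 fold change 0.25 ± 0.142 SE, adjusted p = 0.133). Without H/R replicate 3, its lowest H/R library, Ddx58 passed at 0.411 (adjusted p = 0.00714). Without H/R replicate 2, its highest, it was at 0.0757 and did not pass (edgeR adjusted p = 0.664). Tmem173, which encodes the DNA-sensing adaptor STING, had between 9 and 20 counts in the controls and between 7 and 15 after H/R, with a 95% interval of the log2 fold change from -0.951 to 0.551. Ifih1, which encodes the RNA sensor MDA5, had 8, 12 and 8 counts in the controls and 5, 2 and 6 after H/R, and was too low to test.

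Of the interferon-stimulated effectors, 5 of 11 could be tested, of which Eif2ak2 and Ifit2 fell and Adar, Bst2 and Oasl1 did not pass. Eif2ak2, which encodes PKR, a kinase that is activated by double-stranded RNA and blocks translation, had 2034, 2047 and 1930 counts in the controls and 786, 642 and 860 after H/R. The lowest control was more than double the highest H/R library. Scaled counts went from 1913 ± 90.4 to 799 ± 92.9, so that 0.418 of the control level remained (log2 fold change -1.26 ± 0.065 SE, edgeR adjusted p = 1.20e-13). Leaving out any 1 library kept the log2 fold change of Eif2ak2 between -1.31 and -1.17. The gene (chr17:78852564-78882573, minus strand, GRCm38) shares 4.32% of its exon length with genes on the opposite strand.

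Ifit2, an antiviral protein that binds viral RNA and the translation machinery, had 91, 95 and 103 counts in the controls and 47, 39 and 56 after H/R. It fell to 0.541 of the control with no overlap (log2 fold change -0.89 ± 0.169 SE, edgeR adjusted p = 2.50e-05). Adar, which edits adenosine in double-stranded RNA, had 1042, 913 and 1001 counts in the controls and 888, 898 and 914 after H/R, and Bst2, which tethers budding virus, had 358, 306 and 359 against 299, 306 and 326. Their 95% intervals of the log2 fold change, from -0.100 to 0.118 for Adar and from -0.160 to 0.166 for Bst2, were narrow around 0, and the sign of both estimates changed with the scaling (-0.0959 and -0.102 with library totals). Adar shares 16.8% of its exon length with Chrnb2 on the opposite strand. Oasl1, a relative of the oligoadenylate synthetases, had 57, 58 and 38 against 48, 43 and 33 counts (log2 fold change -0.16 ± 0.219 SE, adjusted p = 0.536).

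The other 6 effectors, which are among the genes most strongly induced by interferon, had almost no transcript in either group. Isg15, a ubiquitin-like modifier, had 4, 2 and 2 counts in the controls and 6, 1 and 5 after H/R. Ifit1 had 2, 2 and 0 against 2, 0 and 0 counts, and Rsad2, which encodes viperin, had 3 counts in H/R replicate 2 and 0 in the other 5 libraries. These values were at or near the limit of 3 counts, and no fold change is given for Ifit1 and Rsad2. Oasl2 had 4, 5 and 3 against 2, 4 and 1 counts. Ifit3 had 7, 6 and 9 counts in the controls and 4, 1 and 3 after H/R, and Usp18, which removes ISG15 and restrains IFNAR2 signalling, had 6, 10 and 8 against 2, 4 and 1. Control counts of Ifit3, Usp18 and Ifih1 were all above those after H/R, but an exact permutation test of 3 against 3 libraries cannot go below 0.1, the value reached by each. When all 25330 genes were tested without the filter, the smallest adjusted p among the 11 low members was that of Usp18 (edgeR, 0.0621), followed by Tap2 (0.0774).

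The MHC class I chains were among the most abundant members and changed little. In RPKM, which corrects for gene length and library total and allows genes to be compared, the control levels were 109 ± 6.02 for H2-D1, 88.8 ± 4.34 for B2m and 51.1 ± 2.12 for H2-K1, the 3 highest of the 37 members. Isg15 (0.164 RPKM) and Tap1 (0.00579 RPKM) were far below. The chains were thus present at high level in cells with almost no transcript of Isg15, Ifit1 and Rsad2.

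B2m, the shared light chain, had 1596, 1591 and 1714 counts in the controls and 1737, 1714 and 1844 after H/R. Scaled counts were 1559 ± 51.6 and 1854 ± 14.8 without overlap, an increase of 1.19-fold (log2 fold change 0.25 ± 0.046 SE, edgeR adjusted p = 1.74e-05). H2-D1, a classical heavy chain, had 6519, 5808 and 5720 counts in the controls and 5545, 5803 and 6532 after H/R. Its groups overlapped, and although it passed (1.09-fold, log2 fold change 0.12 ± 0.047 SE, adjusted p = 0.0227), it did not pass with library totals (0.0197, adjusted p = 0.715) or upper quartile scaling (0.0532, adjusted p = 0.321). It was also lost when control replicate 2 or 3 or H/R replicate 2 or 3 was left out, with adjusted p up to 0.145. H2-K1, the other classical heavy chain, had 2988, 2667 and 2900 against 2527, 2761 and 2769 counts, a log2 fold change with a 95% interval from -0.037 to 0.142 (adjusted p = 0.323) whose sign turned with library totals (-0.0520). Heavy chain genes are near-identical copies in part of their sequence, so reads may be split between them. The sum of H2-K1 and H2-D1 ranged from 8115 to 9002 scaled counts in the controls and from 8694 to 9295 after H/R, and the groups overlapped.

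H2-T23, which encodes the nonclassical molecule Qa-1 seen by NK cell receptors, was much lower, with 38, 34 and 38 counts in the controls and 34, 40 and 34 after H/R (log2 fold change 0.11 ± 0.224 SE, edgeR adjusted p = 0.681). Nlrc5, the transactivator of MHC class I genes, had 0, 2 and 1 counts in the controls and 1, 3 and 0 after H/R, which is at the limit of 3 counts in both groups.

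In peptide transport and loading, Tapbp fell and both TAP genes were close to 0. Tapbp, which encodes tapasin, the bridge between TAP and the empty class I molecule, had 736, 731 and 780 counts in the controls and 373, 373 and 418 after H/R. All H/R libraries were far below the controls, and scaled counts went from 715 ± 18.8 to 407 ± 9.07, or 0.570 of the control (log2 fold change -0.81 ± 0.065 SE, edgeR adjusted p = 3.99e-13). However, 22% of its exon length is shared with Gm19412 on the opposite strand and Zbtb22 on the same strand, and whether reads were counted by strand is not given in the sources used here. Tap1 had 0, 2 and 0 counts in the controls and 0 in every H/R library, and Tap2 had 1, 2 and 4 against 2, 8 and 10. Among class I genes, the chain B2m and the loading factor Tapbp therefore passed in opposite directions, with Tapbp having by far the largest change. H2-D1 passed as higher too, but its groups overlapped and the call was lost with library totals and with upper quartile scaling.

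**Figure D4:**
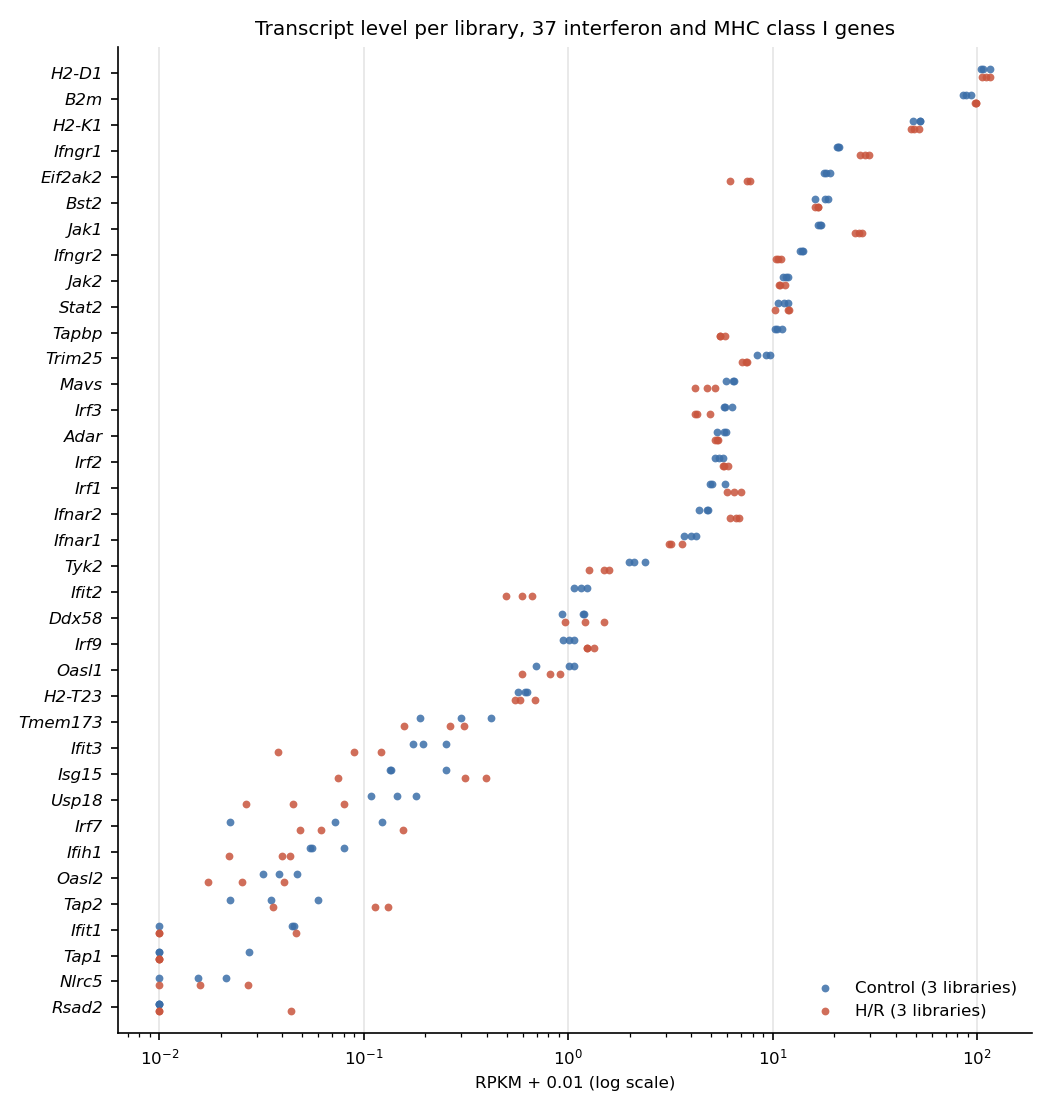
RPKM of each of the 37 members in 3 control libraries (blue) and 3 H/R libraries (red) on a log scale, after adding 0.01, in the order of the control mean. H2-D1, B2m and H2-K1 lie at the top, Eif2ak2 and Tapbp are shifted to the left after H/R, and the genes at the bottom (Ifit1, Tap1, Nlrc5 and Rsad2) are at 0 in part of the libraries.

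Wider lists of the same pathways were examined in the same fit. Of 78 other interferon-stimulated genes, 72 were in the tables and 35 could be tested. Of these, 7 were higher, 7 lower and 21 did not pass (40% passed, against 62.8% of all genes). Their median log2 fold change was -0.074. Some that did not pass had few counts, such as Oas1a (20, 17 and 26 against 26, 16 and 19) and Gbp4 (13, 24 and 5 against 6, 8 and 12). Others had more, such as Ifi204 (784, 875 and 817 against 859, 734 and 777). These were named after their values were seen, and the part of low counts in the share passing was not tested. Slfn9, a Schlafen family gene, had 1015, 1128 and 1022 counts in the controls and 189, 168 and 178 after H/R, a fall in every library (log2 fold change -2.43 ± 0.076 SE, edgeR adjusted p = 2.90e-24). Isg20, an exonuclease of RNA, had 2112, 2008 and 2141 against 2969, 2913 and 3123 counts and rose by 0.66 on the log2 scale. Trim21, an antibody receptor of the cytosol, rose by 0.51, whereas Ifi35 (-0.34) and Samd9l (-0.33) fell.

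At lower counts the list held its other changes of at least 2-fold, which are named after their values were seen. Cxcl10, a chemokine that attracts T cells and a target of both interferon and NF-kB, had 6, 6 and 9 counts in the controls and 69, 76 and 77 after H/R (log2 fold change 3.52 ± 0.269 SE, edgeR adjusted p = 1.39e-13). Cxcl11, which binds the same receptor, had 4, 2 and 11 against 21, 20 and 30 counts (2.17, adjusted p = 2.18e-05), and 41.7% of its exon length is shared with Gm2673 on the opposite strand. Mx1, an antiviral GTPase, went the other way, with 18, 15 and 23 counts in the controls and 1, 1 and 2 after H/R, a ratio based on very few H/R counts. Gbp9, a guanylate-binding protein, had 117, 130 and 142 against 31, 71 and 57 counts and fell as well (-1.15, adjusted p = 1.77e-05).

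In the other sensors and adaptors, 6 of 23 tested genes were higher and 8 lower (60.9% passed, against 62.8% of all genes). Tbkbp1, an adaptor of the kinase TBK1, had 61, 73 and 64 counts in the controls and 214, 215 and 222 after H/R (log2 fold change 1.85 ± 0.125 SE, edgeR adjusted p = 5.77e-15), and Ticam1, the adaptor TRIF of TLR3, rose by 0.87 and Cyld, a deubiquitinase, by 0.68. Trim65, a ubiquitin ligase of MDA5, had 956, 825 and 871 against 415, 404 and 437 counts (-0.94), and Samhd1, which degrades deoxynucleotides (-0.79), and Ikbke, a kinase that activates IRF3 (-0.48), fell too. Tlr3, a receptor for double-stranded RNA named after its values were seen, had 38, 46 and 46 against 9, 23 and 21 counts and fell by 1.15. Of 20 other receptor, JAK-STAT and IRF genes tested, 10 were higher and 4 lower (70% passed). Among genes with a mean scaled count of at least 100, the increases were led by Irf2bpl (1.18), the phosphatase Ptpn2 (0.81) and the STAT inhibitor Pias1 (0.75), and the decreases by the phosphatase Ptpn6 (-0.63), with a fall of Irf5 as well (-0.31). The feedback inhibitors Socs1 (8, 11 and 8 against 24, 13 and 28 counts) and Cish (5, 7 and 1 against 20, 13 and 22), named after their values were seen, passed at 2-fold from low counts, with larger log2 fold changes (1.39 and 2.18).

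On the antigen presentation side, 1 of 14 other class I and class I-like genes was higher and 5 were lower. The other 8 did not pass (42.9% passed, against 62.8% of all genes). Some of these had few counts, such as H2-Q7 (11, 11 and 7 against 11, 8 and 14), named after its values were seen. The part of low counts in this share was not tested either. The lower genes were H60b (-0.54), H2-T10 (-0.33) and H2-Q4 (-0.32), together with Ulbp1 and H2-T22, and H2-M3 was the higher one (0.60), the last 3 named after their values were seen. Part of the exon length is shared with other genes in H60b (11%), H2-Q4 (19.1%), H2-T10 (27.1%) and H2-T22 (29.4%). Some of their counts are therefore uncertain. H60b and Ulbp1 encode ligands of the NK cell receptor NKG2D. The abundant heavy chain gene H2-Q1 (46.4 RPKM in the controls), also named after its values were seen, had 3240, 2744 and 2542 against 2670, 2686 and 3157 counts and did not pass. In the list of immunoproteasome, trimming and loading genes, 2 of 11 tested were higher and 3 lower (45.5% passed). Lnpep, a peptide-trimming aminopeptidase, rose by 0.85 and the chaperone Calr by 0.21, while the proteasome activators Psme3 (-0.23) and Psme2 (-0.21) and the chaperone Canx (-0.12) fell. Psmb9, an interferon-induced proteasome subunit, was at 0 or 1 counts in every library.

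Of 8 factors of the MHC promoter tested, 7 passed (87.5%, against 62.8% of all genes), with 3 higher (Creb1 0.54, Atf1 0.51 and Rfxap 0.40) and 4 lower, among them Nfya (-0.58), Nfyb (-0.41) and Rfxank (-0.40), on the log2 scale. Rfxank shares 33.8% of its exon length with Nr2c2ap on the opposite strand. MHC class II genes reached at most 13 counts in any library. Of 13 immune cell markers, 9 were in the tables and 3 could be tested. Cd68 and Csf1r were higher and Cd14 lower. The summed level of the 9 markers was 772 to 878 scaled counts in the controls and 609 to 660 after H/R. Most of this sum came from Cd14, at 744 ± 52.4 scaled counts in the controls and 431 ± 35.9 after H/R. Cd68, a lysosomal glycoprotein, had 16, 22 and 22 against 123, 113 and 137 counts. The defining leukocyte marker Ptprc had at most 3 counts, and the macrophage markers Adgre1 and Itgam at most 1, in every library. Of 11 hepatocyte markers tested, 3 were higher (Krt8, Krt18 and Foxa2) and 7 lower, with a median log2 fold change of -0.679. The decreases reached 2-fold in 4 genes, Ttr (-3.07), Alb (-2.85), Trf (-1.48) and Apob (-1.04), and Hnf4a fell by 0.41. The value of Alb was imprecise (± 0.808 SE, edgeR adjusted p = 0.0372), with its highest count in control replicate 1. Trf shares 63.5% of its exon length with Gm20425 on the same strand, so part of its counts is uncertain. The summed level of the 15 listed hepatocyte markers, most of which came from Krt8 and Krt18, was 87428 to 92584 scaled counts in the controls and 135700 to 137608 after H/R. The part of these markers in the changes of the members was not tested.

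**Figure D5:**
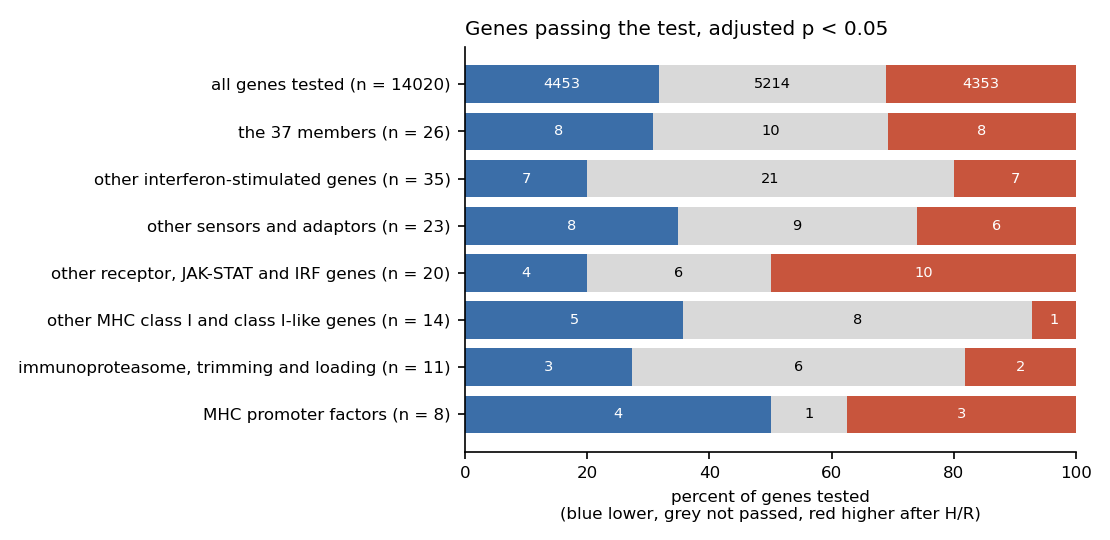
Percent of tested genes that were lower (blue), did not pass (grey) or were higher (red) after H/R at an adjusted p under 0.05, for all 14020 genes, the members and the wider lists, with the number of genes in each bar. The members divide almost as all genes do, with 8 lower, 10 not passing and 8 higher.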

How the data were processed

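RNA-seq was done on 3 control and 3 H/R samples of AML12 cells from stranded mRNA libraries, and the labels gave the group and replicate number of each. The submitters' processing notes name Trimmomatic 0.36, featureCounts, Subread 1.5.1 and edgeR 3.12.1 and the builds GRCm38 and mm10. The gene annotation and the strand setting of the counting are not given in the sources used here. The authors deposited whole-number counts per gene, without normalization, for 25330 genes, and RPKM values that could be recomputed by the count, gene length and library total of the same table (largest relative error 1.13e-06). In 24 rows the symbol had become a date, and these rows stayed in the tests unnamed.

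The count test was that of edgeR 4.0.16 in R 4.3.3 (filterByExpr, TMM, estimateDisp, robust glmQLFit, glmQLFTest), with Benjamini-Hochberg adjustment over 14020 genes. The procedure was tested on simulated data in which few genes were changed, as many up as down. In the data themselves 62.8% of genes passed, so the simulation does not show how scaling and test behave in that setting. Total counts were 20438746 to 21854790 per library, and 3 counts were taken as the limit that a count of 0 allows, which covers counting error only. The members and lists were chosen with earlier results of these data known. All members are named, and from each wider list at most 3 genes in each direction, those with the largest change among genes that passed with a mean scaled count of at least 100; exceptions are marked, and the values of 1 gene that the rule names are not reported here. Alternatives were DESeq2 1.42.0, library totals, upper quartile scaling, no filter, at least 10 counts per library throughout, a block for the replicate number, limma 3.58.1 on log2(RPKM + 1) and log2(RPKM + 0.1), a threshold of 1.5-fold and leaving out each library. Genes sharing no exon with another gene were added as an alternative after seeing the data. Promoter sequences are those of RefSeq (GRCm38.p6), matched by symbol for 33 of the 37 members. Replicates of a group differed by more than sampling noise (chi-square of 2.19 to 16.2 for each degree of freedom). The highest values were those of control replicate 1 against control replicates 2 (15.5) and 3 (16.2). Control replicates 2 and 3 differed by 5.6, and H/R libraries by at most 3.35.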

Additional observations from a re-analysis of the deposited data

How the results depend on the processing

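When 1 library at a time was left out, the members passing numbered 15 to 17 (7 to 9 higher and 8 or 9 lower) against 16, and the genes passing 8105 to 8521 against 8806, or 1211 to 1290 against 1195 at 2-fold. Without control replicate 1, which holds liver transcripts, 8 members were higher and 9 lower, Ifnar1 being added. Counts that moved by over 1.5 times were those at 2-fold with limma on log2(RPKM + 1), 406 genes, and at 1.5-fold, 3420 genes and 5 members. Among genes sharing no exon with another gene, 8425 genes and 16 members could be tested, so that fewer could pass: 5366 genes and 8 members (4 higher, 4 lower), with 772 genes and 0 members at 2-fold, since Eif2ak2 shares exons. Over alternatives with all 6 libraries, 195 of 223 member values kept direction and side of the threshold, and 141 of 156 with a library left out. Those that reversed were of members that had not passed. With library totals, upper quartile scaling, log2(RPKM + 1) and log2(RPKM + 0.1) the log2 fold changes were -0.0710, -0.0367, -0.0656 and -0.0709 for Jak2, -0.102, -0.0673, -0.0933 and -0.0981 for Bst2, -0.0959, -0.0613, -0.0798 and -0.0926 for Adar, and -0.0520, -0.0173, -0.0508 and -0.0517 for H2-K1. Bst2 was at -0.00562 with at least 10 counts in every library. For Bst2, Adar, Oasl1 and Tmem173 the highest and lowest values with a library left out were 0.0335 and -0.0554, 0.0450 and -0.0292, 0.0124 and -0.344, and 0.104 and -0.449. The cause was not tested. Libraries with the same replicate number did not deviate together (correlations of -0.023, 0.004 and -0.015), which does not show how the cultures were set up. In the fit with the replicate block 16 members passed, 8 in each direction, and 1200 genes passed at 2-fold. None of the 11 members with few counts passed when tested without the filter. At this depth decreases and modest changes of these members could not be detected. A large increase from few counts could be, since Cxcl10 passed with 6, 6 and 9 counts in the controls and 69, 76 and 77 after H/R.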
